A study of Mus musculus with 15 samples.

Results

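Neurog3, Neurod1 and Insm1 encode transcription factors of the enteroendocrine lineage, the hormone-producing branch of the secretory cells of the gut. All peaks that overlap a window of 25 kb either side of each gene were taken from the 12 peak lists of the series. The windows held 77 peaks of 778471 in all, 29 at Neurog3, 26 at Neurod1 and 22 at Insm1. In build mm9 the windows are centred on chromosome 10 at about 61596500 (Neurog3), on chromosome 2 at about 79294000 (Neurod1) and on chromosome 2 at about 146048500 (Insm1). Distances below run from these centres, and a negative distance lies on the side of the lower coordinates.

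Secretory cells of the intestinal crypt arise where Notch signalling is low and the transcription factor ATOH1 is made. Neurog3, a basic helix-loop-helix factor, then starts the enteroendocrine fate, and mice without it lack enteroendocrine cells in the intestine. Neurod1, a further basic helix-loop-helix factor, is switched on by Neurog3 and serves the differentiation of endocrine cells. Insm1, a zinc-finger factor that largely represses transcription, is likewise needed for endocrine differentiation. Enteroendocrine cells are rare in normal epithelium.

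In C57BL/6 mice, 7 libraries mapped H3K4me2, a modification of histone H3 that marks enhancers and promoters. These came from Lgr5+ stem cells sorted for GFP from Lgr5-eGFP-Cre mice (ISC, 1 library), secretory progenitors of the crypt (Sec-Pro, 1 library from Rbpj-/- mice and 1 from mice given the Notch inhibitor dibenzazepine, DBZ), enterocyte progenitors from Atoh1-/- crypts (Ent-Pro, 2 libraries), goblet cells from Rbpj-/- villi (GOB, 1 library) and enterocytes from Atoh1-/- villi (ENT, 1 library). Sec-Pro and Ent-Pro each gave 1 library of H3K27ac, which marks enhancers and promoters in use, and 1 of DNase I hypersensitive sites (DHS), places where the chromatin is open. Binding of ATOH1 was measured in Sec-Pro by its FLAG tag, in 1 library. The labels name no Cre driver, no age and no sort for the populations other than ISC, and they do not say which Sec-Pro preparation gave the H3K27ac, DHS and ATOH1 lists. Per the labels, Atoh1-/- epithelium has no secretory cells. The populations are named for progenitors, goblet cells and enterocytes, not for enteroendocrine cells. By that label Ent-Pro and ENT would hold no enteroendocrine cells, and in the other preparations their share is unknown. Sec-Pro and GOB differ from Ent-Pro and ENT in deletion or treatment, so between them lineage and genotype or treatment cannot be told apart. ISC, from Lgr5-eGFP-Cre mice, differs in genotype from both sides. In such mixed preparations a mark in few cells and a weak mark in many cells cannot be told apart.

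Read numbers behind the lists are unknown, so where a list has no peak, the cells may still carry the mark below what was detectable. The lists held from 15240 peaks (ATOH1) to 92279 peaks (H3K4me2 in DBZ-treated Sec-Pro). A score stands beside each peak and is the authors' own. It was used to rank a peak within its list, and the score percentile is the share of that list's peaks with a lower score. Percentiles of lists of different length show no change between populations. The shortest peak measured 146 bp in the H3K4me2 lists of ISC, DBZ-treated Sec-Pro, Ent-Pro replicate 1, GOB and ENT and 200 bp in those of Rbpj-/- Sec-Pro and Ent-Pro replicate 2.

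The 3 genes differed in chromatin. Insm1 had a wide H3K4me2 peak over its window centre in all 7 lists and a wide DHS in both progenitors. Neurog3 had an H3K4me2 peak of 486 to 962 bp about 1 kb below its centre in the 6 lists other than ISC, together with a DHS in both progenitors. Neurod1 had short and mostly low-ranked H3K4me2 peaks in progenitors and ENT, none in ISC, and the most in GOB. H3K27ac was found near none of the centres in either progenitor. The only H3K27ac in any window lay about 23 kb below the Neurog3 centre. ATOH1 peaks were found about 5 kb below Neurog3 and Insm1, and none at Neurod1.

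**Figure D1:**
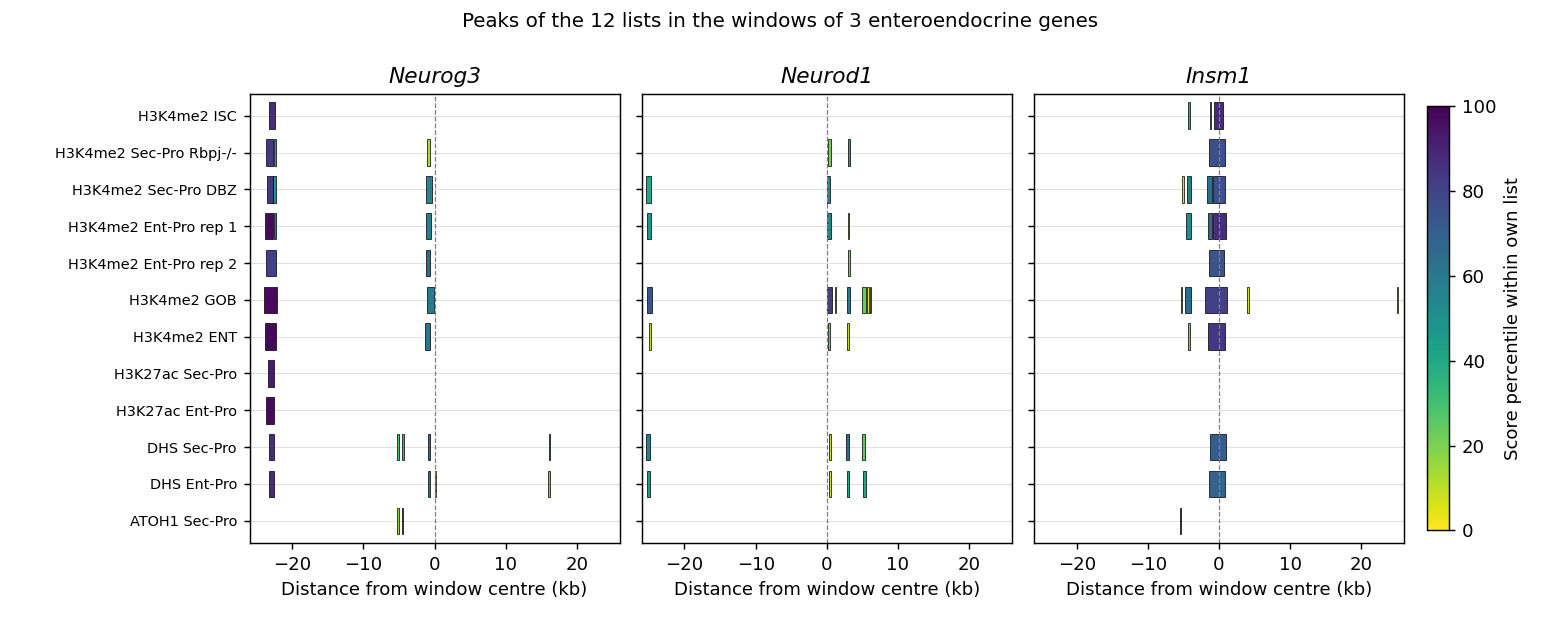
Peaks of the 12 lists (rows) in the windows of Neurog3, Neurod1 and Insm1. The x axis gives the distance from the window centre in kb, each box is a peak drawn to scale, and its colour is the score percentile within its own list. The H3K27ac rows hold 1 peak each, both about 23 kb below the Neurog3 centre, and the GOB row holds 14 H3K4me2 peaks, the most of any list with all peaks counted.

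RefSeq promoter sequences of build GRCm38.p6 were at hand for 2 of the 3 genes, and they are shown because both genes had open, H3K4me2-marked chromatin near the window centre. Capitals mark each E-box, the hexamer CANNTG (the same letters on both strands) that basic helix-loop-helix factors such as ATOH1, Neurog3 and Neurod1 bind. The Neurog3 promoter is chr10:62132840-62133139 on the plus strand and that of Neurod1 is chr2:79456587-79456886 on the minus strand, both in GRCm38.p6. Positions were not carried over to mm9, so where these bases lie relative to the mm9 peaks is not given here.
Neurog3: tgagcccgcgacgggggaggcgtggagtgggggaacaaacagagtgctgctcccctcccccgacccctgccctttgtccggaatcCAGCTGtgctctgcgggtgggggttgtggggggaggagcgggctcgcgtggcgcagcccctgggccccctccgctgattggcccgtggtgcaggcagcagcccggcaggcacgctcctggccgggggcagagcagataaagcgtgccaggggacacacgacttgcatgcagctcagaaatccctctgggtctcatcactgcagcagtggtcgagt
Neurod1: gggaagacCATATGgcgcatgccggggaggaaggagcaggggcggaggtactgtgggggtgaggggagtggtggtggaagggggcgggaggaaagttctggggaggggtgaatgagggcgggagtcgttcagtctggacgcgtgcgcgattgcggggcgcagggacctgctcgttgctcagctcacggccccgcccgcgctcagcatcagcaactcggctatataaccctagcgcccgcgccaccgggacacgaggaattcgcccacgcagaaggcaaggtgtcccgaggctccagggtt
Each of these 300 bases held 1 match to CANNTG, which 23756 of 32851 promoters in the table (72.3%) hold. The match in Neurog3 is CAGCTG, which reads the same on both strands and is found in 16.3% of the promoters. The match in Neurod1 is CATATG. Neither promoter held CAGATG or its reverse complement CATCTG, which 17.2% of promoters hold. Both hexamers are also matches to CANNTG.

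Neurog3, the factor that starts the enteroendocrine fate, was compared first between Sec-Pro and Ent-Pro, since it is made downstream of ATOH1. Its peak nearest the centre was found in both Sec-Pro and both Ent-Pro libraries. In Rbpj-/- Sec-Pro the peak ran from 61595384 to 61595869 (486 bp, score percentile 12.4). In DBZ-treated Sec-Pro it ran from 61595280 to 61596119 (840 bp, percentile 54.5). In Ent-Pro replicate 1 it ran from 61595282 to 61595927 (646 bp, percentile 57.5) and in replicate 2 from 61595324 to 61595835 (512 bp, percentile 65.3). The widths of the 2 progenitors thus overlapped, with Sec-Pro holding both the shortest and the longest.

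The mature lists carried the same site. The GOB peak ran from 61595463 to 61596424 (962 bp, percentile 59.3) and the ENT peak from 61595090 to 61595876 (787 bp, percentile 60.9). ISC had no peak there, and its nearest one lay 22.4 kb below the centre. Of all H3K4me2 regions marked in each of the 6 other lists, 15.6% lacked ISC. In the 3 windows 1 of 3 such regions did, so the count at Neurog3 is a single site.

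The DHS called at Neurog3 differed between the progenitors at 3 places, all low-ranked, with 1 library a side. The Sec-Pro list held 5 DHS in this window, and the Ent-Pro list held 4. On the H3K4me2 peak, a DHS ran from 61595526 to 61595884 in Sec-Pro (359 bp, percentile 63.3), and one from 61595551 to 61595857 in Ent-Pro (307 bp, percentile 55.3), which lay wholly within it. On the far side of the centre, a pair of weaker sites also overlapped, from 61612530 to 61612765 in Sec-Pro (percentile 31.9) and from 61612486 to 61612752 in Ent-Pro (percentile 20.9). Neither site carried H3K4me2 in any of the 7 lists.

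The Sec-Pro list held a pair of further DHS about 5 kb below the Neurog3 centre that no Ent-Pro DHS overlapped. They ran from 61591172 to 61591480 (309 bp, percentile 28.8) and from 61591897 to 61592200 (304 bp, percentile 34.0). Neurog3 lies on the plus strand in the RefSeq table, so this is the upstream direction. In Ent-Pro a DHS without a Sec-Pro match ran from 61596501 to 61596700, directly at the centre. It was 200 bp long, the shortest length in that list, and lay at percentile 0.0130. Over the 3 windows, 2 of 10 Sec-Pro DHS had no Ent-Pro DHS, against 14.6% of the whole Sec-Pro list. The reverse held for 1 of 9 Ent-Pro DHS, against 29.8% of the whole list.

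Both Neurog3 DHS that were found in Sec-Pro and not in Ent-Pro overlapped an ATOH1 peak. ATOH1, the factor that all secretory cells of the intestine need, had a peak from 61591257 to 61591565 (309 bp, percentile 16.5) and a second from 61591890 to 61592079 (190 bp, percentile 47.9). The first shared 224 bp with its DHS and the second 183 bp. Neither carried H3K4me2 in any of the 7 lists or H3K27ac in either progenitor. Of all 15240 ATOH1 peaks, 2.17% had a DHS in Sec-Pro and none in Ent-Pro. In the 3 windows 2 of 3 did, both at Neurog3. These neighbouring sites belong to 1 gene and 1 library and are not replicates. Low scores are a further limit, since in the upper 50% of each list by score 0 such sites were left. Both DHS, at percentiles 28.8 and 34.0, fell out there, as did the ATOH1 peak at percentile 16.5. Of the ATOH1 peaks in the 3 windows, 2 stayed. The one at percentile 47.9 has the median score of its list, which other peaks share, so it stands at the very edge of this cut. Another ATOH1 peak lay within 1 kb at 20.0% of all ATOH1 peaks and at 2 of 3 in the windows, both at Neurog3.

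H3K27ac stood apart from the Neurog3 centre. The Sec-Pro peak ran from 61573149 to 61573862 (714 bp, percentile 92.2) and the Ent-Pro peak from 61572811 to 61573893 (1083 bp, percentile 96.9). H3K4me2 covered the same place in all 7 lists, and a DHS did in both progenitors, from 61573259 to 61573970 in Sec-Pro (percentile 86.9) and from 61573230 to 61573978 in Ent-Pro (percentile 87.5). The H3K4me2 peaks there were the highest-ranked of the window in every list, with a percentile of 86.4 in ISC, of 83.2 in either Sec-Pro library, of 97.0 in Ent-Pro replicate 1, of 80.9 in its replicate 2, of 97.0 in GOB and of 97.3 in ENT. In the order of genes in GRCm38.p6, Fam241b is the next gene on this side of Neurog3 and Tspan15 the next on the other. Whether the site belongs to Fam241b or to Neurog3 was not tested.

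**Figure D2:**
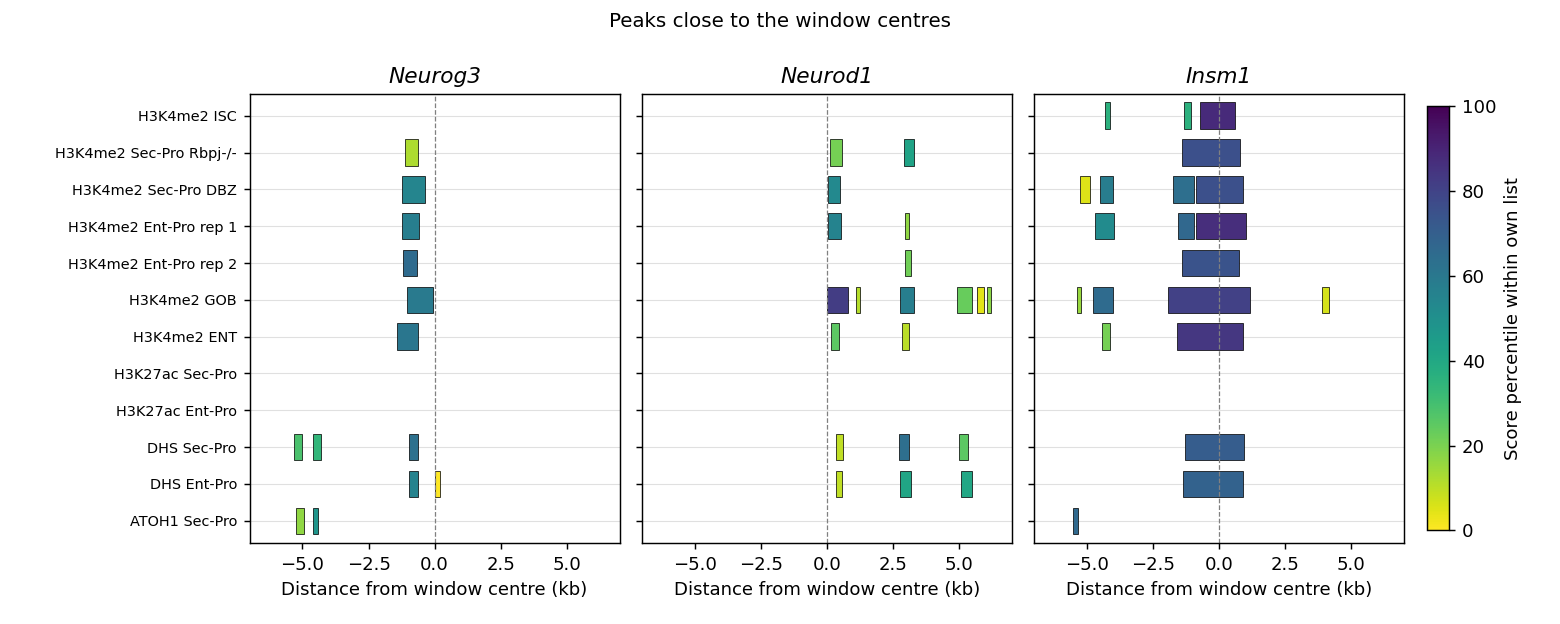
The same peaks within 7 kb of the window centres, with the distance in kb on the x axis and the 12 lists as rows. Colour gives the score percentile within the own list. The 2 ATOH1 peaks at Neurog3 stand over Sec-Pro DHS with no Ent-Pro DHS, and the DHS at Insm1 spans over 2 kb in both progenitors without H3K27ac.

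Neurod1, which acts after Neurog3, carried less H3K4me2 over its whole window than the other genes in each progenitor library. The Neurog3 window includes the site about 23 kb below its centre. The Neurog3 peak nearest the centre was shorter than the length covered at Neurod1 in Rbpj-/- Sec-Pro (486 against 854 bp) and Ent-Pro replicate 1 (646 against 903 bp). It was longer in DBZ-treated Sec-Pro (840 against 687 bp) and Ent-Pro replicate 2 (512 against 261 bp). At the centre, Rbpj-/- Sec-Pro had a peak from 79294119 to 79294581 (463 bp, percentile 20.8) and DBZ-treated Sec-Pro one from 79294050 to 79294490 (441 bp, percentile 52.9). Ent-Pro replicate 1 had one from 79294061 to 79294521 (461 bp, percentile 55.3). Ent-Pro replicate 2 had none at the centre, and its nearest peak ran from 79296942 to 79297202 (261 bp, percentile 21.8). That second site, about 3 kb above the centre, was also marked in Rbpj-/- Sec-Pro (391 bp, percentile 41.9) and in Ent-Pro replicate 1 (174 bp, percentile 16.8), and not in DBZ-treated Sec-Pro. The libraries of each progenitor thus differed among themselves in which site was called.

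DHS at Neurod1 were the same 4 sites in both progenitors. The one at the centre ran from 79294346 to 79294614 in Sec-Pro (percentile 9.51) and from 79294354 to 79294567 in Ent-Pro (percentile 9.61). The site about 3 kb above the centre ran from 79296730 to 79297122 in Sec-Pro (percentile 63.8) and from 79296779 to 79297171 in Ent-Pro (percentile 41.1), 393 bp long in each. A further site, about 5 kb above, ran from 79299016 to 79299340 in Sec-Pro (percentile 25.2) and from 79299090 to 79299481 in Ent-Pro (percentile 40.6). As Neurod1 lies on the minus strand in the RefSeq table, the higher coordinates are its upstream direction. The last site, at the edge of the window, ran from 79268653 to 79269145 in Sec-Pro (percentile 57.1) and from 79268681 to 79269200 in Ent-Pro (percentile 45.96). The order of the percentiles was not the same at all 4 sites.

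GOB differed from ENT most at Neurod1. GOB had 7 H3K4me2 peaks in the window that covered 2923 bp, and ENT had 3 that covered 757 bp. At the centre the GOB peak ran from 79293992 to 79294794 (803 bp, percentile 82.4) and the ENT peak from 79294177 to 79294452 (276 bp, percentile 25.2). About 3 kb above it, GOB had 530 bp (percentile 57.6) and ENT 279 bp (percentile 10.2). At the window edge, GOB had 807 bp (percentile 73.2) and ENT 202 bp (percentile 9.17). That GOB peak also overlapped an ENT peak just outside the window, from 79268802 to 79268955, and ENT peaks covered 356 bp of it in all. All 3 shared sites were longer in GOB, although the whole GOB list covers less of the genome, 64.4 Mb against 69.5 Mb in ENT. With 1 library a side there is no replicate check of this difference.

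The other 4 GOB peaks at Neurod1 were in no other H3K4me2 list. They ran from 79295093 to 79295258 (percentile 11.1), from 79298924 to 79299493 (percentile 23.2), from 79299693 to 79299930 (percentile 4.50) and from 79300074 to 79300219 (percentile 17.3). The second of them covers the DHS that both progenitors had about 5 kb above the centre, where no progenitor list had H3K4me2. All 4 rank low in the list by score. ISC had no peak in the whole Neurod1 window, and its nearest lay 57.99 kb above the centre. No ATOH1 and no H3K27ac peak lay in the window either. The nearest ATOH1 peak was 181 kb away, and the nearest H3K27ac peak 65.4 kb away in Sec-Pro and 66.2 kb in Ent-Pro.

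Insm1, the zinc-finger factor, had the widest peaks. Over the centre, the H3K4me2 peak measured 2201 bp in Rbpj-/- Sec-Pro, from 146047089 to 146049289 (percentile 75.7). In DBZ-treated Sec-Pro it was called as a pair, from 146046774 to 146047538 and from 146047638 to 146049400 (765 and 1763 bp, percentiles 63.9 and 75.5). Ent-Pro replicate 1 was called as a pair too, from 146046963 to 146047551 and from 146047628 to 146049510 (589 and 1883 bp, percentiles 66.6 and 86.8). Ent-Pro replicate 2 had 2153 bp in 1 piece, from 146047094 to 146049246 (percentile 74.4). Among these 4 lists the pair was called in those with a shortest peak of 146 bp, 1 of each progenitor. GOB and ENT have the same shortest peak and held the Insm1 peak in 1 piece. The cause of the split was not tested.

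Stem and mature cells carried the Insm1 peak as well. In ISC it was called as a pair, from 146047185 to 146047423 and from 146047789 to 146049108 (239 and 1320 bp, percentiles 36.2 and 88.0). The longer piece was wider than 95.6% of the peaks of that list. In 1 piece, the Insm1 peak ran from 146046580 to 146049658 in GOB (3079 bp, percentile 80.8) and from 146046911 to 146049392 in ENT (2482 bp, percentile 84.1). It was thus present in all 7 lists, as 24.5% of all H3K4me2 regions were. In the 3 windows, 2 of 14 regions were, this one and the one about 23 kb below Neurog3.

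The DHS at Insm1 was among the longest of either list. It ran from 146047222 to 146049429 in Sec-Pro (2208 bp, score percentile 70.8) and from 146047129 to 146049391 in Ent-Pro (2263 bp, score percentile 69.0). The median DHS was 350 bp long in Sec-Pro, and in Ent-Pro it was 331 bp long. The pair shared 2170 bp. Ent-Pro came from Atoh1-/- crypts, so this site was open in cells that the labels describe as lacking the secretory lineage.

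A second H3K4me2 site lay about 4.3 kb below the Insm1 centre. It measured 189 bp in ISC, 523 bp in DBZ-treated Sec-Pro, 733 bp in Ent-Pro replicate 1, 775 bp in GOB and 298 bp in ENT. The lists whose shortest peak is 200 bp did not have it. No DHS and no H3K27ac lay on it in either progenitor.

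The ATOH1 peak at Insm1 ran from 146042981 to 146043150 (170 bp, percentile 66.0). No DHS of either progenitor overlapped it. H3K4me2 touched it in GOB alone, by 25 bp, at the end of a 153-bp peak from 146043126 to 146043278 (percentile 15.5). DBZ-treated Sec-Pro had a peak next to that one, from 146043249 to 146043617 (percentile 5.33), which did not reach the ATOH1 peak. Over all ATOH1 peaks 31.6% had no H3K4me2 in any list, and in the 3 windows 2 of 3 had none. A Sec-Pro DHS was found at 33.9% of all ATOH1 peaks and at 2 of 3 here, and an Ent-Pro DHS at 37.0% and at 0 of 3. Sec-Pro H3K27ac was found at 47.7% and at 0 of 3.

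The question whether marked sites were also acetylated was put to all peaks of the windows. Few H3K4me2 peaks near the 3 genes overlapped H3K27ac of the same progenitor. In Rbpj-/- Sec-Pro 1 of 6 did, against 73.8% of the whole list, and in DBZ-treated Sec-Pro 2 of 9, against 57.8%. In Ent-Pro replicate 1 it was 2 of 9, against 66.5%, and in replicate 2 it was 1 of 4, against 79.0%. All of these overlaps were at the site 23 kb below Neurog3. Neurod1 and Insm1 had none in either progenitor. Of the 14 regions formed by overlapping H3K4me2 peaks of the 7 lists, 1 carried H3K27ac in Sec-Pro, against 44.5% of all regions, and 1 in Ent-Pro, against 46.4%.

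Most of these H3K4me2 peaks lay over open chromatin. A DHS of the same progenitor overlapped 6 of 6 and 7 of 9 member peaks in Rbpj-/- and DBZ-treated Sec-Pro, against 35.0% and 27.1% of the lists. In Ent-Pro replicates 1 and 2 it overlapped 8 of 9 and 4 of 4, against 31.9% and 39.1%. Among peaks with a DHS, those without H3K27ac were 5 of 6 and 5 of 7 in Sec-Pro, against 21.1% and 25.4%, and 6 of 8 and 3 of 4 in Ent-Pro, against 20.8% and 15.4%. Seen from the open sites, 1 of 10 Sec-Pro DHS and 1 of 9 Ent-Pro DHS in the windows carried H3K27ac, against 44.0% and 46.1% of all DHS.

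The wide peak at Insm1 belongs to an uncommon kind. Of H3K4me2 peaks of at least 1 kb with a DHS, those without H3K27ac made up 11.4% in Rbpj-/- Sec-Pro, 13.0% in DBZ-treated Sec-Pro, 9.80% in Ent-Pro replicate 1 and 7.24% in replicate 2. Insm1 had such a peak in each of these 4 lists. The nearest H3K27ac peak to the Insm1 centre was 133 kb away in Sec-Pro and 100.1 kb away in Ent-Pro. The sites of a window share their gene, and the members were chosen by gene, so these shares describe 3 loci and were not tested.

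The total length under H3K4me2 in each window was set against the spread between libraries of a progenitor. The Sec-Pro libraries came from Rbpj-/- and from DBZ-treated mice, so their spread includes the difference between these preparations. In both progenitors the spread also includes the different shortest peak of the lists. At Neurog3 it was 1786 bp in Rbpj-/- and 1975 bp in DBZ-treated Sec-Pro, and 2131 and 1934 bp in Ent-Pro replicates 1 and 2. The Sec-Pro mean was 1881 ± 134 bp and the Ent-Pro mean 2033 ± 139 bp (SD, n = 2 libraries each), and the groups overlapped (exact permutation p = 0.667, two-sided). At Neurod1 it was 854 and 687 bp in Sec-Pro, and 903 and 261 bp in Ent-Pro, in the same order of libraries. The Sec-Pro mean was 771 ± 118 bp and the Ent-Pro mean 582 ± 454 bp (SD, n = 2 libraries each; exact permutation p = 1, two-sided). Both Sec-Pro values lay between those of Ent-Pro.

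At Insm1 the length was 2201 and 3420 bp in Sec-Pro, and 3205 and 2153 bp in Ent-Pro. The Sec-Pro mean was 2811 ± 862 bp and the Ent-Pro mean 2679 ± 744 bp (SD, n = 2 libraries each; exact permutation p = 0.667, two-sided). With 2 libraries a group the smallest p is 0.333, so this design could not reach a threshold of 0.05. At Neurog3 the difference of -152 bp was larger than either SD, although the libraries of the groups overlapped. At Neurod1 (188.5 bp) it was larger than the SD of Sec-Pro and smaller than that of Ent-Pro, and at Insm1 (131.5 bp) it was smaller than both. Between lists of the same shortest peak, Sec-Pro minus Ent-Pro was -156 bp (146-bp lists) and -148 bp (200-bp lists) at Neurog3, -216 and 593 bp at Neurod1, and 215 and 48 bp at Insm1. Its sign was the same in both kinds of list at Neurog3 and at Insm1, and not at Neurod1.

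**Figure D3:**
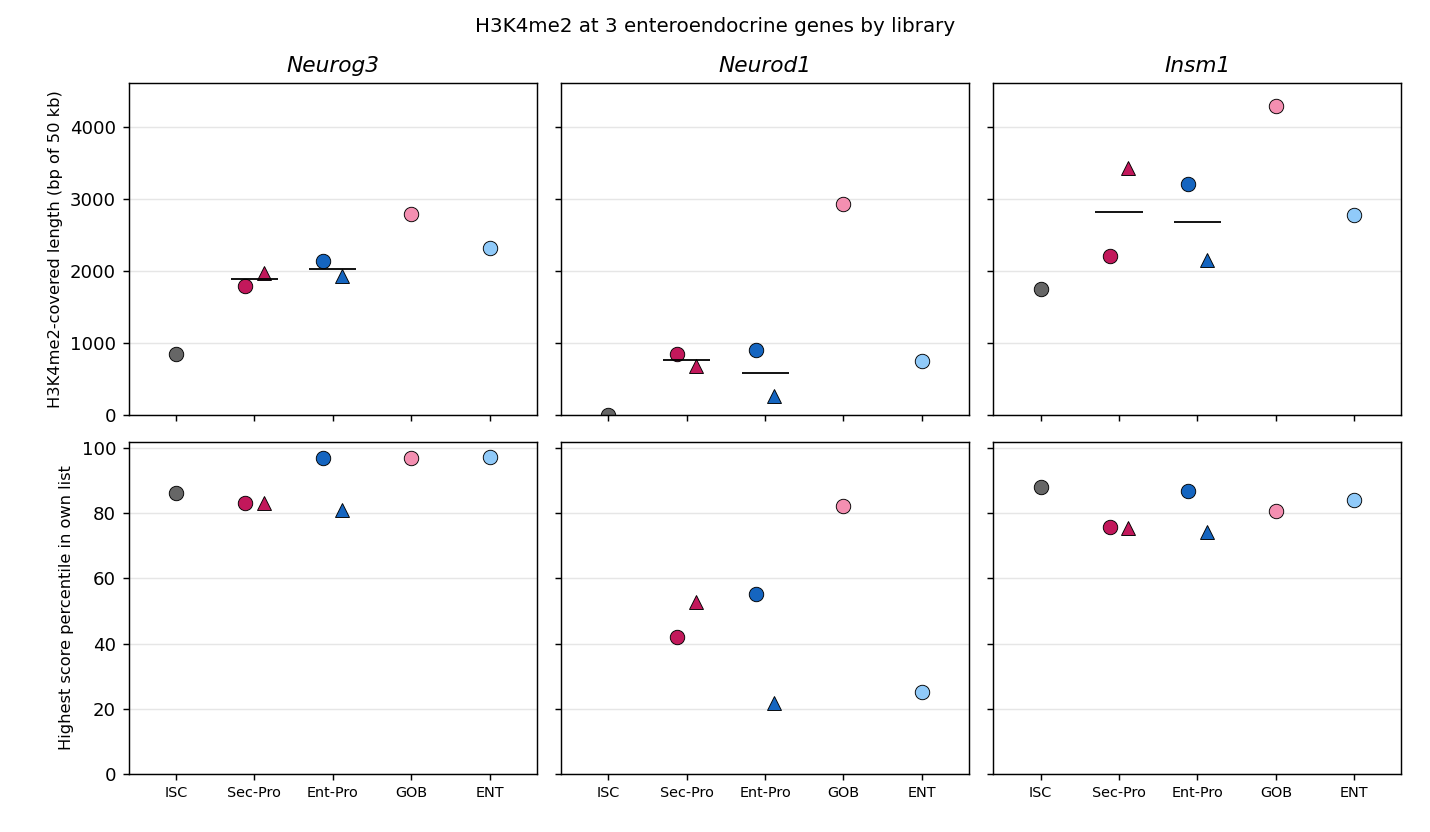
H3K4me2 by library at the 3 genes. The upper row gives the length of the 50-kb window under H3K4me2 peaks in bp and the lower row the highest score percentile of any peak of the window. Circles are replicate 1 or the single library of a group (Rbpj-/- for Sec-Pro), triangles replicate 2 (DBZ for Sec-Pro), and lines the mean of 2 libraries. ISC has no point in the lower Neurod1 panel because it had no peak, and GOB is the highest point of each upper panel.

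Across stem, progenitor and mature cells the covered length was lowest in ISC and highest in GOB at each of the 3 genes. At Neurog3 it was 843 bp in ISC, 2786 bp in GOB and 2321 bp in ENT. At Neurod1 it was 0 bp in ISC, 2923 bp in GOB and 757 bp in ENT. At Insm1 it was 1748 bp in ISC, 4278 bp in GOB and 2780 bp in ENT. The whole ISC list covers 33.4 Mb, against 57.0 Mb and 75.0 Mb in Sec-Pro and 57.7 Mb and 74.0 Mb in Ent-Pro, so the ISC list is low over the whole genome too. By number of peaks GOB was highest with all peaks counted, at 14, but in the upper 50% of each list by score GOB and Ent-Pro replicate 1 had 7 each. Of the 14 GOB peaks in the windows 11 had no ISC peak, against 57.8% of all GOB peaks, and of the 7 ENT peaks 4 had none, against 55.1%.

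Regions marked in 1 lineage alone were found on the secretory side. Of the same 14 regions, 7 had a peak in Sec-Pro or GOB and in none of the Ent-Pro and ENT lists, against 22.4% of all regions. The opposite was found at 0 of 14, against 16.6%. The 7 regions were the 4 at Neurod1 named above and 3 at Insm1, from 146043126 to 146043617, from 146052402 to 146052652 and from 146073481 to 146073662. GOB was the sole list at 6 of the 7, and the first region at Insm1 also had DBZ-treated Sec-Pro. The GOB peaks of all 7 regions ranked low in their list, at percentiles from 0.154 to 23.2. When the progenitor lists were used alone, a choice made after seeing the data, 1 secretory region and 0 enterocyte regions were left. The imbalance thus rests on low-ranked peaks of the GOB library. Of the 14 GOB peaks, 7 had no ENT peak, against 24.8% of the GOB list, and of the 7 ENT peaks 0 had no GOB peak, against 29.2% of the ENT list. The 7 GOB peaks without an ENT peak are the same low-ranked ones.

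The progenitor lists were also compared by themselves, and the shares of peaks found in 1 progenitor were near those of the whole lists. Of the H3K4me2 peaks of Rbpj-/- and DBZ-treated Sec-Pro, 0 of 6 and 1 of 9 were in neither Ent-Pro list, against 3.60% and 16.5% of the lists. Of the peaks of Ent-Pro replicates 1 and 2, 0 of 9 and 0 of 4 were in neither Sec-Pro list, against 12.9% and 4.38%.

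The limit of 25 kb cut through 2 sites. The Neurod1 site at the lower edge began 25.4 kb below the centre in DBZ-treated Sec-Pro, and a low-scoring GOB peak at Insm1 (percentile 0.154) reached 25.2 kb above the centre. Just outside lay an ENT peak 25.05 kb below Neurod1. Above Neurog3, 28.6 to 28.9 kb from the centre, H3K4me2 peaks were found in DBZ-treated Sec-Pro, both Ent-Pro libraries, GOB and ENT. H3K27ac and a DHS lay there in Ent-Pro, at 28.9 and 28.96 kb, whereas the next Sec-Pro peaks of these assays lay 59.3 and 57.5 kb above the centre.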

How the data were processed

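H3K4me2, H3K27ac and ATOH1 were measured by ChIP-seq and open chromatin by DNase-seq. Peak lists of 12 of the 15 samples were used, and the 3 inputs were left out. The tools named are CASAVA 1.7, Bowtie 0.12.7 and MACS2, and the build is mm9, per the submitters' processing notes. For peak calling, no parameters are known here. The authors deposited 1 list per library with a score per peak, whose kind the files do not name. Per the labels, nothing says whether replicates came from separate animals, so p-values measure the spread between libraries only. For Sec-Pro this spread includes the difference between Rbpj-/- and DBZ.

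Python 3.11.15 was used, with SciPy 1.17.1 and NumPy 2.4.6. Peaks overlapping the gene windows by at least 1 bp were taken, and covered length was cut at the window edges. Figures were drawn with matplotlib 3.10.9. The members, windows and tests were chosen with earlier results of these data known. Named by position were the peaks nearest each centre, all ATOH1 peaks, all DHS and all regions of 1 lineage. Other enteroendocrine genes were not analysed here, since the gene table is of another build, GRCm38.p6, used for names, gene order and promoter sequences. Counts of overlaps were checked on subsets drawn from the Rbpj-/- Sec-Pro H3K4me2 list with known shared peaks. Partial overlaps were not part of that check. Whole lists served as background. The exact permutation test compared the 4 progenitor libraries. Alternatives were windows of 10 and 50 kb, the upper 50% by score, lists of equal length, an overlap of 50%, merging within 1 kb and leaving out each progenitor H3K4me2 library in turn.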

Additional observations from a re-analysis of the deposited data

How the results depend on the processing

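Of 103 alternative values for 23 results, 78 kept their direction (counts and H3K27ac lengths also to within 1.5 times), 18 moved and 7 changed sign. Sec-Pro minus Ent-Pro covered length of H3K4me2 changed sign with windows of 10 kb at Neurog3 (84 bp), in the upper 50% by score at Neurod1 (-10 bp) and Insm1 (-53 bp), and between lists of equal length at Insm1 (-53 bp). Leaving out 1 library gave -250.5 to -53.5 bp at Neurog3, -132.5 bp (without Ent-Pro replicate 2) to 509.5 bp at Neurod1, and -478 bp (without DBZ-treated Sec-Pro) to 741 bp at Insm1, where it was -394.5 bp without Ent-Pro replicate 2. None of these p-values could pass the threshold, and the cause was not tested. H3K27ac length at Neurog3, -369 bp for Sec-Pro minus Ent-Pro, was 0 bp within 10 kb and -661 bp within 50 kb, as the window then leaves out or takes in peaks. Sec-Pro minus Ent-Pro DHS counts at Neurog3, 1 in the main setting, were 0 within 50 kb, 0 in the upper 50% and 2 at equal length. At Neurod1, 0 in the main setting, they were 2 in the upper 50% and 1 at equal length. H3K4me2 peaks with H3K27ac, 1.5 per library in either progenitor, were 0 within 10 kb in both and 2.5 within 50 kb in Ent-Pro, and leaving out a library gave 1 to 2 in each. In the upper 50% by score, 0 ATOH1 peaks had a Sec-Pro DHS without an Ent-Pro DHS and 0 had H3K4me2. With an overlap of 50%, 0 had H3K4me2. H3K4me2 peaks in the upper 50% by score numbered 2 in ISC, 2 in Rbpj-/- Sec-Pro, 6 in DBZ-treated Sec-Pro, 7 in Ent-Pro replicate 1, 3 in its replicate 2, 7 in GOB and 3 in ENT, so GOB no longer held more than every other list. Regions in secretory lists alone fell to 1 without GOB and ENT. No paired analysis was possible because the Sec-Pro libraries carry no replicate numbers in the labels that could tie them to Ent-Pro libraries, and the differences between lists of the same shortest peak, a technical grouping, stand beside the pooled ones in the report without a test. Unknown read depth limits every statement on a missing peak.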
